A study of Rattus norvegicus with 8 samples.

Results

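The genes described here encode the subunits of the mitochondrial respiratory chain, measured in rat whole blood. They were chosen by name: every probe set for which the platform annotation gave exactly 1 gene symbol, with that symbol starting in Nduf, in Sdh followed by a, b, c or d, in Uqcr, in Cox followed by 4, 5, 6, 7 or 8, or in Atp5. This gave 101 probe sets for 90 of the 14217 genes named on the array. Of the 90 genes, 77 encode subunits: 34 of complex I, 4 of complex II, 7 of complex III, 17 of complex IV and 15 of complex V. The other 13 share a prefix but are assembly factors, an inhibitor, a supercomplex factor or, by its name, a pseudogene. A further 7 probe sets carry a chain gene together with a second symbol, among them those for Cox7a2, Ndufs5 and Uqcrb, and were left out.

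The respiratory chain sits in the inner mitochondrial membrane. Complex I takes electrons from NADH, and complex II, which is also the succinate dehydrogenase of the citric acid cycle, takes them from succinate. Complex III passes them to cytochrome c and complex IV from there to oxygen, while complexes I, III and IV pump protons. Complex V, the ATP synthase, lets the protons flow back and makes ATP. Most subunits are nuclear genes, as are all those described here, and the rest are encoded by mitochondrial DNA. In blood, white cells and platelets carry mitochondria, young red cells still hold some, and mature red cells have none.

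The animals were male Wistar rats, bought at 7 weeks of age and given normal chow for 1 week. They then ate either that normal diet (CE-2) or a high-fat diet (Quick fat) for 8 weeks, and blood was collected under anesthesia on day 56 after a night without food. The labels give 10 rats for each diet and 4 arrays per diet, called biological replicates; whether an array holds 1 rat or a pool is not said. Arrays are named here by diet and replicate number, normal 1 to 4 and high-fat 1 to 4. A diet with added mulberry leaf powder was also part of the study and is not analysed here. Defining markers of blood cells were bright: Hbb, a hemoglobin chain, had a mean deposited level of 15.09, Alas2, the red cell enzyme of heme synthesis, 13.68, Pf4 of platelets 12.82, S100a9 of neutrophils 11.59 and Cd3e of T cells 9.87. Of the 11 measured neutrophil genes, 5 lay below the array median of 6.60, among them Lcn2 (5.95), Mmp8 (6.45) and Camp (6.48). Of the 11 measured skeletal muscle genes, 5 lay below it, among them Ckm (6.25), Acta1 (5.87) and Myh4 (6.01), and 6 above it, with Myh1 at 9.18 and Tnni2 at 7.42.

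The deposited values read as log2 intensities, but they differ between arrays far less than RNA measurements do. Among the 101 probe sets the largest range over the 8 arrays was 0.00115, and the median SD was 9.04e-06, against 6.07e-06 over all probe sets. Differences are therefore given in deposited units, with the moderated standard error (SE) of the limma test, which draws on the spread of all probe sets. They are also divided by the SD within the diet groups (pooled over both, not moderated), a unit written as within-group SDs. No fold changes are given. To show single arrays, each gene was also scaled to mean 0 and SD 1 over the 8 arrays, which is called its scaled level. A pattern of normal 3 must be stated before the comparisons: it had the lowest value in 34 of the 77 subunit genes (44.2%), against 24.6% of all genes.

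Nuclear respiratory chain genes are known as targets of the factors NRF-1, GABP (an ETS family factor) and YY1, so their promoters were searched for 3 motifs on both strands: GCGCA, any base and GCGC for NRF-1, CCGGAAG for ETS factors and AAGATGGC for YY1. The promoters came from RefSeq on the GRCr8 assembly and cover 250 bases before to 50 bases after each start; 70 of the 77 subunit genes had one. The NRF-1 motif was in 13 of the 70 (18.6%), the ETS motif in 20 (28.6%) and the YY1 motif in 16 (22.9%). Over the 11733 promoters of genes on the array the shares were 8.49%, 15.1% and 4.73%, and over all 27457 promoters 4.71%, 9.22% and 3.44%. At least 1 of the 3 motifs was in 40 of the 70 subunit promoters (57.1%), in 24.7% of those on the array and in 15.5% of all. The median GC content was 56% for the subunit promoters, 60% for those on the array and 52.3% for all. A match describes the letters only; binding was not measured.

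The 250 bases before the start are printed for 4 genes, 5′ to 3′ along the gene's own strand, with matches to the 3 motifs in capitals. They show the range of arrangements among genes discussed in the results: Sdha with NRF-1 matches only, Sdhb with a single ETS match, Cox8a with a pair of ETS matches (read here as CTTCCGG, the other strand), and Atp5me with all 3 motifs.
Sdha, chr1:30764303-30764552, plus strand: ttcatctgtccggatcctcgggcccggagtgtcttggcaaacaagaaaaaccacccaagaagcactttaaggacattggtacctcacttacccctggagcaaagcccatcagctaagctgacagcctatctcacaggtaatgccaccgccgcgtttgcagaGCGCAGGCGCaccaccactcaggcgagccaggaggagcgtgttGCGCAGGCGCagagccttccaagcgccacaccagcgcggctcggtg
Sdhb, chr5:158547684-158547933, plus strand: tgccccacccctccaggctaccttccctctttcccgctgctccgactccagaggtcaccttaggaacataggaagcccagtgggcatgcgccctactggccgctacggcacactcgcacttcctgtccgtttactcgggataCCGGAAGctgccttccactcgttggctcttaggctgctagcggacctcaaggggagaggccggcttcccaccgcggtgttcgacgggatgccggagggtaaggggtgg
Cox8a, chr1:213833624-213833873, minus strand: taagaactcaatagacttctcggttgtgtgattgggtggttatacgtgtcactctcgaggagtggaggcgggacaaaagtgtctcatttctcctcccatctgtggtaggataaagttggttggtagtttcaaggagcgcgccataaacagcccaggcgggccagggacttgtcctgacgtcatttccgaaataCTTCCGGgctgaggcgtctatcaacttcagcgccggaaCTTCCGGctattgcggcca
Atp5me, chr14:1464610-1464859, plus strand: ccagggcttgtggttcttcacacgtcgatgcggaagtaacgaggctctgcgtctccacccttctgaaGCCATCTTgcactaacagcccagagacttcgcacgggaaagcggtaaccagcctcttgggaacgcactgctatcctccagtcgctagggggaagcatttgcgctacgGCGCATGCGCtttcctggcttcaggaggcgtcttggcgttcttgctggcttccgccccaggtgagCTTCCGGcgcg
Sdha and Sdhb encode the catalytic subunits of the same complex, yet these stretches share none of the 3 motifs. In Sdha, a further NRF-1 match begins 1 base before the start and runs past it, so it is not in capitals. In Cox8a, a YY1 match likewise begins 4 bases before the start and runs past it. By complex, the NRF-1 motif was in 6 of 32 promoters of complex I, 1 of 4 of complex II, 1 of 6 of complex III, 0 of 14 of complex IV and 5 of 14 of complex V. The ETS motif was in 7, 2, 3, 3 and 5 of these promoters, and the YY1 motif in 8, 1, 1, 2 and 4. No motif of the 3 is therefore shared by all subunit genes, and the 0 of 14 in complex IV says only that these letters are not in those windows.

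**Figure D1:**
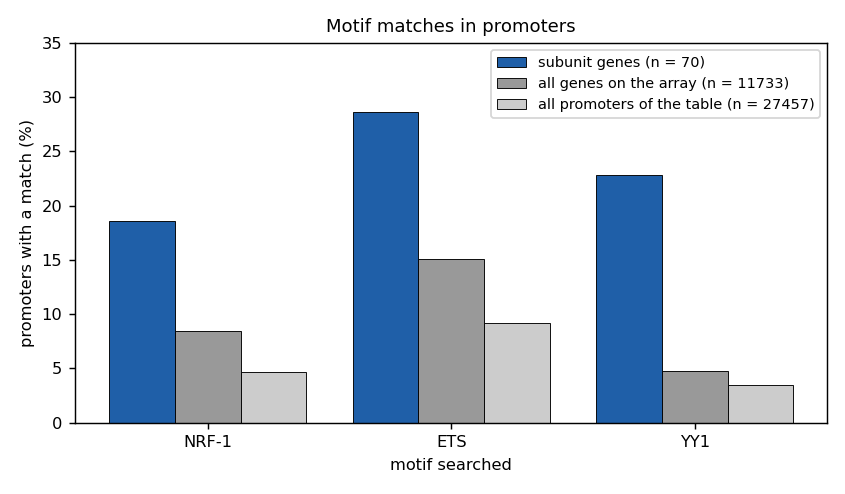
Bars show the percentage of promoters with a match to each of the 3 motifs (x axis), for the subunit genes, for all genes on the array and for all promoters in the RefSeq table. The subunit bars stand at 18.6%, 28.6% and 22.9%, above both backgrounds for each motif.

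Nearly all subunit genes gave a signal above the middle of the array. In 70 of 77 (90.9%) the mean level over the 8 arrays lay above the array median of 6.60, against 65.4% of all genes, and in 66 (85.7%) above the 75th percentile of 7.13, against 38.1%. Probe sets differ in how strongly they bind, so these levels do not rank the transcripts of different genes. All 34 genes of complex I, all 4 of complex II, all 7 of complex III and all 15 of complex V were above the median, but only 10 of the 17 of complex IV. In complex I the levels ran from 6.90 for Ndufs1, a core iron-sulfur subunit, to 13.01 for Ndufa1, a small membrane subunit. In complex II they ran from 7.72 (Sdha) to 8.48 (Sdhd), and in complex III from 8.20 for Uqcrfs1, the Rieske iron-sulfur protein, to 12.37 for the hinge protein Uqcrh. In complex V they ran from 8.33 for Atp5pf of the peripheral stalk to 11.13 for Atp5f1b, the catalytic beta subunit.

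Complex IV was divided by isoform. Several of its subunits exist as a widely expressed form and as one restricted to tissues such as heart, skeletal muscle, lung or testis. All 7 restricted forms measured had signals near or below the array median, from 6.02 for Cox7b2 to 6.71 for Ndufa4l2, and only Ndufa4l2 lay above the array median. The others were Cox4i2 at 6.42, Cox6a2 at 6.39, Cox6b2 at 6.48, Cox7a1 at 6.60 and Cox8b at 6.24. Their widely expressed partners read 10.24 (Cox4i1), 10.96 (Cox6a1), 10.50 (Cox6b1), 11.50 (Cox7b), 11.40 (Cox8a) and 9.31 (Ndufa4, once counted to complex I and now to complex IV). Of the 10 complex IV genes that are not restricted forms, 9 were above the 75th percentile. The exception was Cox5a at 6.51, for which another probe set carries a second symbol and was left out.

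**Figure D2:**
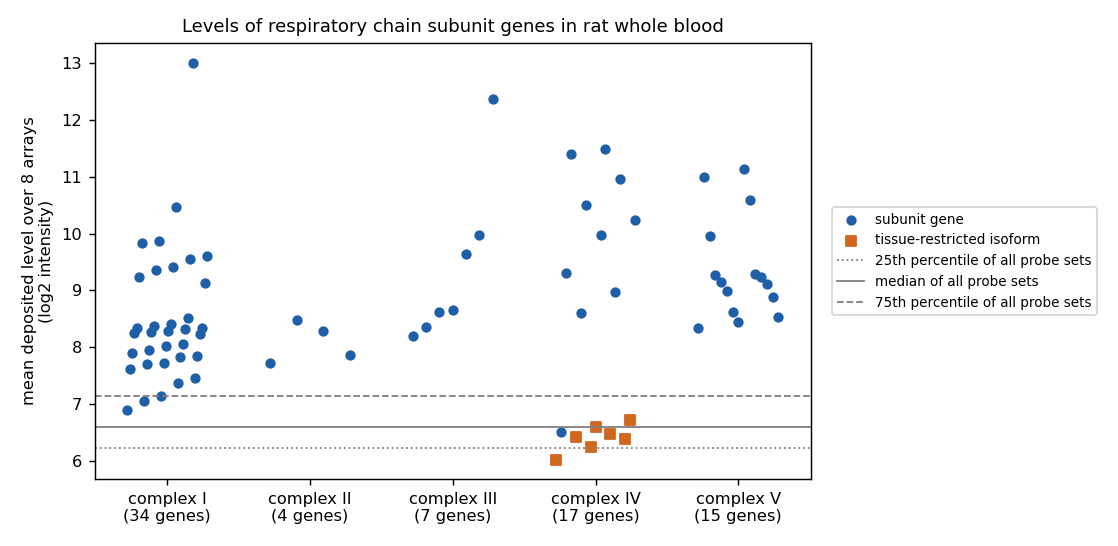
Each point is the mean deposited level (y axis, log2 intensity) of 1 subunit gene over the 8 arrays, by complex, with lines for the array quartiles. The restricted isoforms of complex IV lie between 6.02 and 6.71, at or below the middle of the array apart from Ndufa4l2, while every gene of complexes I, II, III and V lies above the median.

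The diet comparison asked whether these transcripts differ in blood after 8 weeks of high-fat feeding. No respiratory chain gene passed the test. In limma's moderated test with Benjamini-Hochberg adjustment over 31042 probe sets, 0 of the 101 member probe sets and 0 of all probe sets (0%) had an adjusted p under 0.05. The smallest adjusted p was 1 among the members and 0.736 over the whole array. Before adjustment, 1 of the 101 member probe sets had a p under 0.05, against 699 of 31042 (2.25%) overall. In no member gene did the 4 high-fat arrays all lie above the 4 normal ones, which held for 84 of 14217 genes (0.591%), or all below, which held for 103 (0.724%). Among single probe sets the same was 0 of 101 members in each direction, against 182 of 31042 probe sets above (0.586%) and 266 below (0.857%). With whole blood, fewer cells of a type and less RNA per cell cannot be told apart.

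The direction of the members was split. Of the 90 genes, 50 had a higher high-fat mean (55.6%), against 6740 of all genes (47.4%), but 1 of 90 did when each array was centred on its median and 14 when arrays were quantile normalized. Centring left 2.38% of all genes higher, so it moved nearly every gene alike and is no test of the direction of single genes. Quantile normalization left 24.0% of all genes higher, and 53 of the 90 members were exactly equal under it. The median difference over the 77 subunit genes was 0.0226 within-group SDs, with 42 higher and 35 lower, against -0.0374 over all genes. An absolute difference over 1 within-group SD was found in 10 subunit genes (13.0%), against 12.2% of all genes. Without normal 3, 23 of the 77 subunit genes were higher and the median was -0.421. Without high-fat 3, 57 were higher with a median of 0.305, and without high-fat 4, 28 were higher with a median of -0.258. The diet with the higher mean in most subunit genes thus changed when single arrays were left out.

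**Figure D3:**
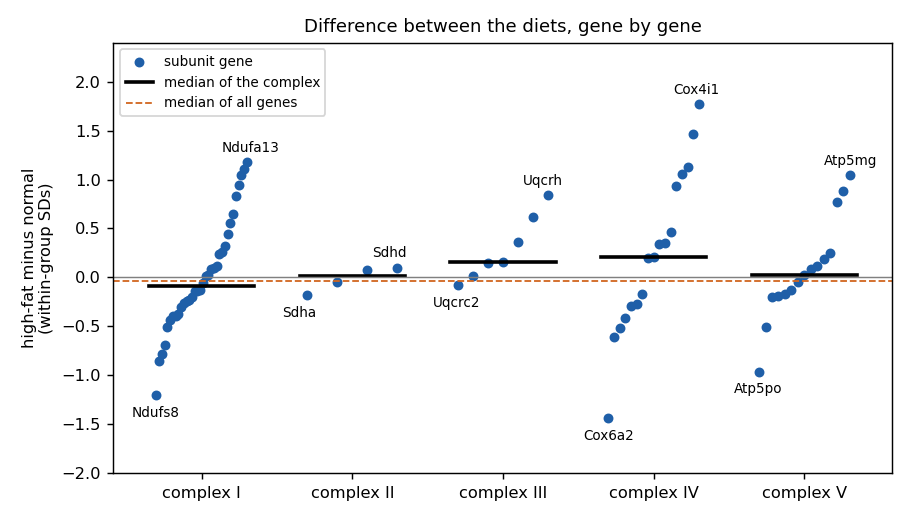
Points give the high-fat minus normal difference of each subunit gene in within-group SDs (y axis), by complex, and black lines give the median of each complex. The medians lie between -0.0935 (complex I) and 0.208 (complex IV), with genes on both sides of 0 in each complex; centring the arrays moves the 5 medians to between -1.19 and -1.52.

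Complex I is the largest complex, with core subunits that carry the electron path and accessory subunits around them. Of its 34 genes 16 were higher and 18 lower, with a median of -0.0935 within-group SDs; the 6 core genes were split 3 to 3 and the 28 accessory genes 13 to 15. The gene with the smallest p that was lower was Ndufs8, a core iron-sulfur subunit. Its scaled levels were 0.149, 1.00, -0.181 and 1.17 in normal 1 to 4 and -1.61, -0.0439, -1.21 and 0.730 in high-fat 1 to 4. High-fat 1 and 3 lay below every normal array, and the other high-fat arrays lay among them. The difference was -2.04e-06 ± 1.37e-06 (SE, n = 4 per diet), or -1.20 within-group SDs, with a limma p of 0.180 and an adjusted p of 1.

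On the other side stood Ndufa13, an accessory subunit also known as GRIM-19. It had scaled levels of -1.04, -0.278, -0.970 and 0.182 in the normal arrays and of 0.210, -0.312, 0.0279 and 2.18 in the high-fat arrays. High-fat 4 stood far above the rest, and high-fat 2 and 3 lay within the range of the normal diet. The difference was 4.21e-06 ± 2.50e-06, or 1.18 within-group SDs (limma p 0.138, adjusted p 1), and it turned to -1.21 when arrays were centred. Ndufa11, an accessory membrane subunit, had scaled levels of -1.54, -0.116, -0.400 and 0.0477 against 0.348, -0.733, 0.520 and 1.88. High-fat 4 was again the highest and high-fat 2 lay inside the normal range. Its difference was 1.85e-05 ± 1.12e-05, or 1.10 within-group SDs (limma p 0.143, adjusted p 1; -1.06 after centring).

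Ndufa8, an accessory subunit of the intermembrane space, varied most within complex I, with an SD of 4.39e-04 over the 8 arrays. It read -0.605, 0.124, -1.10 and 0.272 on the normal diet and 1.52, -0.429, -1.08 and 1.29 on the high-fat diet. The high-fat group held both the highest arrays and one of the lowest, so the difference of 2.87e-04 ± 2.95e-04 was no larger than its error. Ndufs1, which carries iron-sulfur clusters in the electron path, was almost level between the diets (0.0161 within-group SDs). In it, normal 3 (-1.66) and high-fat 3 (-1.33) were the low arrays of their groups. Ndufa1 differed by -0.786 within-group SDs.

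Complex II showed the smallest differences of the 5 complexes in within-group SDs. Its genes are the flavoprotein Sdha, the iron-sulfur protein Sdhb and the membrane anchors Sdhc and Sdhd. Their differences were -0.179, -0.0478, 0.0795 and 0.0934 within-group SDs, with a median of 0.0159, and each sign turned in at least 1 leave-one-out. Sdha had scaled levels of 0.547, 0.894, -1.60 and 0.546 on the normal diet and of -0.214, 0.720, -1.46 and 0.573 on the high-fat diet. Sdhb had 0.220, 0.627, -1.32 and 0.580 against -0.480, -0.028, -1.24 and 1.64. Each diet thus held 1 array that was low in both genes, replicate 3 in each case. The anchors showed it too: normal 3 and high-fat 3 read -1.19 and -1.20 for Sdhc, and -1.85 and -1.16 for Sdhd. Without normal 3, 0 of the 4 genes were higher on the high-fat diet, and without high-fat 3 all 4 were. The number 3 is not known from the labels to link these arrays beyond their titles. Over all genes, however, the deviations of normal 3 and high-fat 3 from their diet means correlated at 0.445. That was the highest value of any pair of a normal and a high-fat array.

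In complex III 6 of 7 genes were higher on the high-fat diet, with a median of 0.152 within-group SDs, but 2 of 7 were without normal 3 (median -0.199) and 0 of 7 were after centring. After quantile normalization 2 of the 7 were higher, 2 were lower and the rest were exactly equal. In within-group SDs the largest difference was that of Uqcrh, the acidic hinge protein thought to help cytochrome c dock. Its scaled levels were 1.23, -1.49, -1.44 and 0.0664 on the normal diet and 0.243, -0.0841, 0.863 and 0.606 on the high-fat diet. The high-fat arrays lay close together inside the wide range of the normal ones. The difference was 9.20e-07 ± 1.06e-06, or 0.837 within-group SDs, with a limma p of 0.415 and an adjusted p of 1. Uqcrq and Uqcr10, small membrane subunits, differed by 0.618 and 0.358, and the Rieske protein Uqcrfs1 by 0.147. The core protein Uqcrc2 was the only lower one, at -0.0799.

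Complex IV, cytochrome c oxidase, held the largest differences in within-group SDs, though not in deposited units, where Ndufa8 differed most (2.87e-04). Its 17 genes were split 10 higher to 7 lower, with a median of 0.208 within-group SDs, and 5 of them (29.4%) exceeded 1 within-group SD, against 12.2% of all genes. The widely expressed isoforms, a grouping made after their values were seen, were higher in 5 of 6 genes with a median of 1.09; centring, which lowers nearly all genes (median -1.20), put them at -1.12, and after quantile normalization all 6 were exactly equal. The 7 restricted isoforms, with signals near or below the array median, were higher in 3 and lower in 4, with a median of -0.274. In every leave-one-out at least 5 of the 6 widely expressed isoforms were higher, with medians from 0.840 to 1.68. These fits share most arrays with the main fit, and the group was formed after its values were seen. Such fits are no independent test of the group. All the widely expressed isoforms but Ndufa4 were among the 19 subunit genes with levels from 9.56 to 13.01. Of these 19, 13 were higher and 6 lower, with a median of 0.556, and 5 (26.3%) exceeded 1 within-group SD. Whether signal level plays a part in the isoform values was not tested.

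Cox4i1, the regulatory subunit that binds ATP and carries the oxygen-response isoform switch with Cox4i2, differed most in within-group SDs. Its scaled levels were -0.465, -1.19, -1.07 and 0.0513 in the normal arrays and 0.518, -0.521, 1.11 and 1.56 in the high-fat arrays. High-fat 1, 3 and 4 lay above every normal array, and high-fat 2 lay among them. The difference was 2.15e-06 ± 1.11e-06, or 1.77 within-group SDs (limma p 0.0963, adjusted p 1), and -1.19 after centring. Its lung-type partner Cox4i2 differed by 0.468.

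Cox8a, a small membrane subunit whose promoter carries a pair of ETS matches, had scaled levels of -0.406, -0.802, -0.582 and -0.628 on the normal diet and of 1.30, -0.773, 1.78 and 0.114 on the high-fat diet. The normal arrays were tightly grouped, with an SD of 7.32e-07 against 5.19e-06 among the high-fat arrays. High-fat 2 again lay among the normal arrays, and the other high-fat arrays lay above all of them. The difference was 5.44e-06 ± 2.58e-06, or 1.47 within-group SDs (limma p 0.0745, adjusted p 1; -1.09 after centring). The heart and muscle form Cox8b differed by -0.609. Cox7b had 1.13 within-group SDs (1.89e-05 ± 1.11e-05), Cox6a1 1.06 (1.81e-05 ± 1.14e-05) and Cox6b1 0.930. Ndufa4 was the exception among the widely expressed forms at -0.292.

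Cox6a2, the heart and muscle form of the subunit next to Cox6a1, had the smallest p among the lower genes of complex IV. Scaled, it stood at 1.22, -0.016, 1.38 and -0.197 against -0.209, -0.597, 0.185 and -1.77. High-fat 4 was the lowest array, and normal 1 and 3 stood above all others. The difference was -6.57e-06 ± 3.13e-06, or -1.44 within-group SDs (limma p 0.0756, adjusted p 1), for a probe set whose level of 6.39 lies below the array median. Cox6b2, Cox7a1 and Cox7b2 differed by -0.418, -0.274 and 0.208. Ndufa4l2, a form induced by low oxygen, differed by 0.342. Cox7c, which varied most in complex IV with an SD of 1.04e-04, differed by -0.516.

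Marker lists of blood cells are set beside the widely expressed isoforms of complex IV here. The isoforms had a mean scaled level of -0.688, -0.639, -0.749 and 0.369 in normal 1 to 4 and of 0.475, -0.383, 1.10 and 0.512 in high-fat 1 to 4. For the red cell list, 11 of whose 15 genes were measured, the range was -0.555 to -0.216 on the normal diet and -0.382 to 0.901 on the high-fat diet. The list was highest in high-fat 1 (0.901) and 3 (0.760), where the isoforms were high too, and lowest of its diet in high-fat 4 (-0.382), where the isoforms were also high. Single red cell genes differed from this, with Klf1 highest in high-fat 4 (1.18) and Rhd highest in normal 4. Of these 11 genes 9 were higher on the high-fat diet, 1 was lower and 1, Hbb, was equal, with a median of 0.808 within-group SDs and none past the threshold in limma's test. Monocyte and natural killer cell lists were highest in high-fat 4, at 2.08 and 2.04. Of the measured monocyte genes 8 of 9 were higher and of the natural killer genes 8 of 8, again with none past the threshold. Of the measured neutrophil genes 8 of 11 were higher, of the B cell genes 1 of 7 and of the platelet genes 2 of 9. The part of these markers in the complex IV values was not tested.

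**Figure D4:**
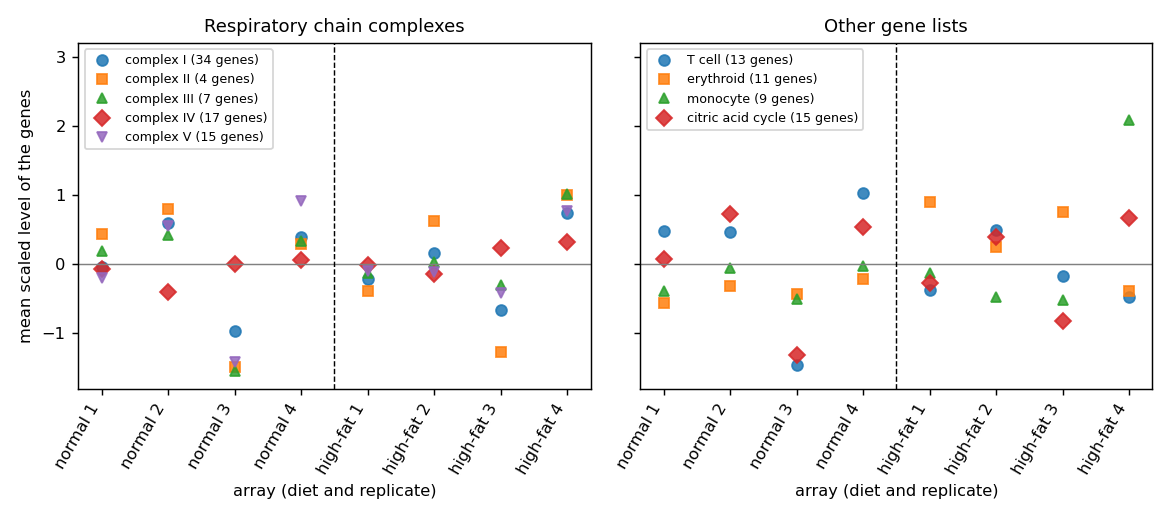
Points give the mean scaled level (y axis) of the genes of each complex, and of 4 other lists, in the 8 arrays (x axis, normal left and high-fat right of the dashed line). Complexes I, II, III and V dip together in normal 3, to between -0.963 and -1.54, while complex IV has 0.00442 there, the mean of restricted isoforms at 1.21 and other genes at -0.837; the citric acid cycle and T cell lists are low in it too.

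In complex V 8 genes were higher and 7 lower, with a median of 0.0226 within-group SDs. By location, the catalytic F1 head was split 1 to 1, the central stalk 1 to 2 and the peripheral stalk, which holds the head still, 2 to 2. The membrane part, which includes the proton ring and the subunits that join synthase dimers, had 4 higher and 2 lower with a median of 0.479. Atp5mg, subunit g of the membrane part, had scaled levels of -0.301, 0.224, -1.93 and 0.0793 on the normal diet and of 0.162, 0.115, 1.75 and -0.0969 on the high-fat diet. The other 6 arrays lay between the low normal 3 and the high high-fat 3. Its difference was 2.47e-06 ± 1.75e-06, or 1.04 within-group SDs (limma p 0.203, adjusted p 1; -1.17 after centring). Atp5me, subunit e, whose promoter carries all 3 motifs, had -0.489, -1.21, -1.15 and 1.15 against 1.07, -0.435, -0.0713 and 1.13, a difference of 0.885 within-group SDs. Normal 4 was as high in it as the highest high-fat arrays.

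The peripheral stalk gene Atp5po, also known as OSCP, was the lowest at -0.964 within-group SDs (-4.38e-06 ± 3.12e-06). Its scaled levels were 0.535, 1.04, -1.26 and 1.51 in the normal arrays and -0.107, -0.421, -1.26 and -0.0363 in the high-fat arrays. Apart from normal 3, the normal arrays lay above all high-fat arrays, and without normal 3 the difference was -2.79. Atp5f1b, the catalytic subunit, differed by -0.0490, and Atp5pf by 0.115. Atp5f1c of the central stalk varied most, with an SD of 2.44e-04, and differed by -0.134.

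Among the 13 genes that share a prefix but are no subunits, 8 were higher and 5 lower, with a median of 0.0763 within-group SDs; their 10 assembly factors were split 5 to 5. Ndufaf1, a complex I assembly factor, had the smallest p of all members and is named for that reason after its values were seen. Its scaled levels were 0.455, -1.19, -1.51 and -0.681 on the normal diet and 0.359, 1.27, 0.861 and 0.432 on the high-fat diet. Normal 1 lay among the high-fat arrays and the others lay below them. The difference was 3.00e-06 ± 1.20e-06, or 2.16 within-group SDs, with a limma p of 0.0422 and an adjusted p of 1. Its mean level lies under the 25th percentile of the array, 6.22. Sdhaf3, which helps Sdhb mature, was the lowest at -1.17. Atp5if1, which inhibits ATP hydrolysis by complex V, differed by 0.507.

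The arrays differed more from each other than the diets did. Averaged over the 77 subunit genes, the scaled levels of normal 1 to 4 were -0.034, 0.362, -0.916 and 0.411, and those of high-fat 1 to 4 were -0.15, 0.0515, -0.416 and 0.691. The means were -0.0441 ± 0.615 (SD, n = 4) and 0.0441 ± 0.472 (SD, n = 4). Normal 3 was the lowest array in 34 subunit genes and high-fat 3 in 16 (20.8%, against 10.9% of all genes). High-fat 4 was the highest in 23 (29.9%, against 14.0%) and normal 2 in 19 (24.7%, against 15.4%). Either normal 3 or high-fat 3 was lowest in 50 of the 77 genes (64.9%), against 35.4% of all genes.

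These counts were lower in complex IV, in its restricted isoforms and in its other genes. Normal 3 or high-fat 3 was lowest in 24 of 34 genes of complex I (70.6%), in all 4 of complex II, in 6 of 7 of complex III and in 11 of 15 of complex V (73.3%), but in 5 of 17 of complex IV (29.4%). Within complex IV, normal 2 was lowest in 5 genes, and normal 3 was lowest in 3 and highest in 4. Of the genes that are not restricted forms, Cox4i1, Cox6a1 and Cox8a were lowest in normal 2, and Cox6b1 and Cox7b in normal 1. Cox5b, Cox6c and Ndufa4 were lowest in normal 3, Cox7c in high-fat 3 and Cox5a in normal 4. The restricted isoforms of complex IV had a mean scaled level of 1.21 in normal 3, while its 10 other genes stood at -0.837. The skeletal muscle list stood at 1.10 there, and only its brightest gene, Myh1, was negative, at -0.775. Dimmer probe sets in general stood higher in normal 3: the mean was -0.0678 over all genes and -0.663 over those above the 75th percentile. The part of signal level or of muscle transcripts in these values was not tested. A test of these differences between complexes was not made, because genes measured in the same 8 arrays are not replicates.

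Bright probe sets in general were low in normal 3. Among the 66 subunit genes above the 75th percentile of the array, normal 3 was lowest in 48.5%, against 44.0% of the 5419 genes above that level. High-fat 4 was highest in 31.8% against 20.4%, and high-fat 3 was lowest in 21.2% against 13.1%. Over this whole range the share for normal 3 was close to that of all genes. On either side of a level of 8.48 the gap had opposite signs, for sets not matched in level. Normal 3 was lowest in 44.7% of subunit genes with a mean level above 8.48, against 57.5% of all genes there. Below 8.48 it was lowest in 43.6% of subunit genes, against 21.95% of all genes. Dim genes are more common among all genes, of which 38.1% lay above the 75th percentile, against 85.7% of the subunit genes. The part of signal level in this gap was not tested. The T cell list, with 13 of 14 genes measured, was also low in normal 3 (-1.45); its other arrays ran from -0.477 to 1.03, and 11 of the 13 genes were lower on the high-fat diet, none past the threshold in limma's test. The platelet list was low in high-fat 4, at -1.55, the array in which most complexes were highest. The share of these cells in the chain values was not tested. The 3′ minus 5′ signal of Gapdh, a measure of RNA integrity, ran only from 0.418355 to 0.418373. It was lowest in normal 3 and highest in normal 4. Its scaled values were -0.908, 1.07, -1.53 and 1.28 on the normal diet and 0.645, -0.701, 0.312 and -0.166 on the high-fat diet. The 3′ minus 5′ signal of actin was lowest in normal 1 (-1.45), with normal 3 at -0.961. The part of RNA integrity in the subunit values was not tested.

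**Figure D5:**
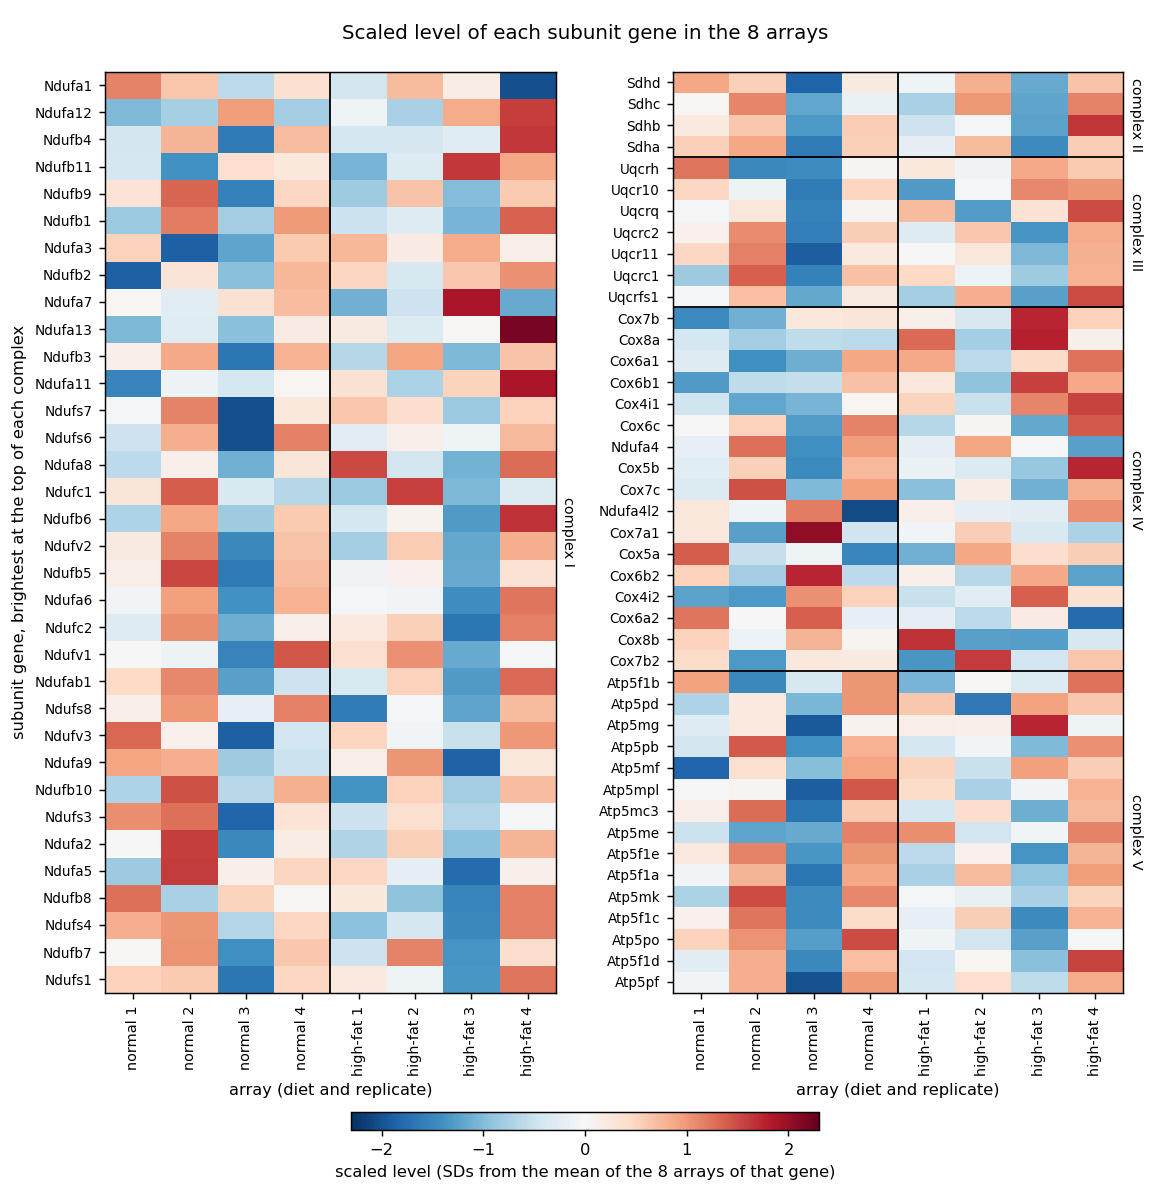
Each row is a subunit gene, brightest at the top of each complex, and each column an array, coloured by scaled level. Normal 3 is the lowest array in 34 of the 77 rows and high-fat 4 the highest in 23. Complex IV is mixed, both in its restricted isoforms (mean of 1.21 in normal 3) and in its other genes (-0.837).

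Other mitochondrial genes were read from lists. Of the 15 measured genes of the citric acid cycle and pyruvate dehydrogenase (19 listed), 6 were higher and 9 lower, with a median of -0.0212 within-group SDs and none past the threshold in limma's test. Their mean scaled levels of 0.0762, 0.729, -1.31 and 0.543 on the normal diet and -0.277, 0.385, -0.815 and 0.666 on the high-fat diet were low in the same arrays as complex II. Citrate synthase, Cs, differed by 0.112. Of 29 measured assembly factors outside the naming rule (30 listed), 14 were higher and 15 lower, with a median of -0.0583. Of 20 measured genes for cytochrome c1 and mitochondrial biogenesis (21 listed), 6 were higher and 14 lower, with a median of -0.338, again none past the threshold. Among them, Nrf1, the factor that binds the NRF-1 motif, differed by -0.948, and Tfam, which packages mitochondrial DNA, by -0.374. Cyc1, the cytochrome c1 of complex III, which falls outside the naming rule, differed by -0.388.

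For 10 member genes more than 1 probe set was measured, and the probe sets mostly did not run the same way. The differences of all probe sets had the same sign in 2 genes, Atp5me (0.885 and 0.618) and Atp5po (-0.964 and -0.314), and opposite signs in 8. The widest gap was in Ndufv3, a flavoprotein-arm subunit of complex I, at 0.440 for the brighter and -0.507 for the dimmer probe set. In Uqcrc2 the values were -0.0799 and 0.773, and in Sdhd 0.0934 and -0.102. The sign of the difference thus depended on the probe set in 8 of the 10 genes. Several of the dimmer probe sets in these 8 lay below the array median of 6.60, such as those of Ndufa9 (5.77), Ndufa7 (6.28) and Sdhaf2 (6.30). The dimmer probe set of Atp5me, whose signs were the same, also lay below it (6.45).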

How the data were processed

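Whole blood RNA of rats on the normal or the high-fat diet was amplified and hybridised to Affymetrix 3' arrays, 4 per diet, per the labels' protocols. The values used were the log2 levels of the table the authors deposited; background correction, normalization and probe summary are not given in the sources used here. Titles gave each array's diet and number. Gene names came from the platform annotation, which gave 1 symbol for 20826 of the 31042 probe sets left after 57 controls were removed. For a gene with several probe sets the brightest, by its mean over all arrays, was used.

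The diets were compared by limma's moderated test (version 3.58.1, under R 4.3.3; two-sided, lmFit then eBayes), adjusted by Benjamini-Hochberg over all 31042 probe sets and called at 0.05. The p-values measure the spread between these arrays. In simulated data, a shift of 5 within-group SDs was called in 62 of 100 probe sets and one of 15 in 98 of 100, with 12 false calls among 31042; smaller shifts were not simulated. Named genes were all Sdh subunits, the 3 genes of smallest p in each other complex, isoform pairs, and in each complex the genes with the highest level, the lowest level and the largest SD, plus genes whose probe sets disagreed most.

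The members and lists were chosen with earlier results of these data known, and the sorting of genes into complexes and isoform groups was made after their values were seen. Alternatives were quantile normalization, centring on array medians, a filter on dim probe sets, trend and robust moderation, a replicate block, the mean over probe sets, and leaving out each array. Signal over background of single probe sets and protein sequences were not used here.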

Additional observations from a re-analysis of the deposited data

Results flagged for a closer look

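In groups of 4, an array was compared with the others of its diet by the gap to its nearest neighbour over the group's range, and set against Dixon's critical value for 4 values. Of 84 groups checked, 6 exceeded it, where chance gives about 1 in 20. In 4 of the 6 the far array was normal 3: Ndufs1 at a scaled level of -1.66 (the others of its diet lay between 0.473 and 0.610), Sdha at -1.60 (others 0.546 to 0.894), Uqcrq at -1.55 (others -0.0291 to 0.268), and the mean over complex III at -1.54 (others 0.195 to 0.425). In Atp5mg it was high-fat 3 at 1.75, with the others between -0.0969 and 0.162. In Cox7b2, an isoform gene of complex IV with a signal near the bottom of the array, it was normal 2 at -1.32, with the others between 0.201 and 0.428. The values of these genes share the same 8 arrays and are not independent.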

How the results depend on the processing

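No respiratory chain gene passed the threshold under any alternative run, and the smallest adjusted p among the 36 named genes over all alternatives was 0.191 (limma). The directions depended on the scaling, and centring could not test them, because it took 1 offset per array from every gene. The array medians differed by 6.60e-05 between the diets, which exceeds the SD of most members (84 of 90 genes had an SD below that of the medians). Single arrays ran from 6.60029 to 6.60051, with the highest median in high-fat 4. The part of single arrays in the difference between the diets was not tested. Centring on these medians left 1 of 90 genes higher on the high-fat diet, against 2.38% of all genes, with medians of -1.28 (all subunits), -1.31 (complex I), -1.52 (II), -1.29 (III), -1.19 (IV) and -1.31 (V) beside -1.20 over all genes. Quantile normalization called 32 probe sets over the array and left 14 members higher, with 53 members exactly equal between diets. Its smallest adjusted p was 2.15e-24 (limma), while probe sets with an unadjusted limma p under 0.05 fell to 370 from 699. Whether the 32 calls come from values made equal between arrays was not tested. The filter on dim probe sets, which removes most restricted isoforms, moved complex IV to 0.636.

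Leaving out 1 array at a time gave 0 to 0 probe sets and 0 to 0 members called, and 29 (without normal 3) to 67 members higher. Medians ran from -0.421 to 0.305 (all subunits), -0.466 to 0.285 (I), -0.603 to 0.428 (II), -0.199 to 0.425 (III), 0.0523 to 0.343 (IV) and -0.638 to 0.299 (V). Of the 36 named genes, 19 kept their sign in every leave-one-out and 17 did not: Atp5f1b (-0.619 to 0.277), Atp5f1c (-0.753 to 0.344), Atp5pf (-0.827 to 0.448), Cox6b2 (-0.798 to 0.0831), Cox7a1 (-0.826 to 0.541), Cox7b2 (-0.309 to 0.781), Ndufa4 (-0.998 to 0.0572), Ndufa4l2 (-0.420 to 0.887), Ndufs1 (-0.646 to 0.485), Ndufv3 (-0.120 to 1.18), Sdha (-0.967 to 0.280), Sdhb (-0.751 to 0.352), Sdhc (-0.291 to 0.506), Sdhd (-0.681 to 0.505), Uqcr10 (-0.105 to 1.01), Uqcrc2 (-0.747 to 0.360) and Uqcrfs1 (-0.340 to 0.621).

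Centring turned 21 named genes to lower values: Atp5me -1.09, Atp5mg -1.17, Atp5pf -1.30, Cox4i1 -1.19, Cox4i2 -1.14, Cox6a1 -0.986, Cox6b1 -1.14, Cox7b -0.804, Cox7b2 -1.19, Cox8a -1.09, Ndufa11 -1.06, Ndufa13 -1.21, Ndufa4l2 -1.19, Ndufs1 -1.34, Ndufv3 -1.22, Sdhc -1.40, Sdhd -1.31, Uqcr10 -1.22, Uqcrfs1 -1.79, Uqcrh -1.20 and Uqcrq -1.22. Quantile normalization turned Atp5me (-0.707), Ndufa13 (-0.707), Ndufs1 (-0.643), Sdhb (0.707) and Sdhd (-1.79), and the mean over probe sets turned Ndufv3 (-0.498), Sdhd (-0.0924) and Uqcrc2 (0.00973).

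The labels do not say that replicate numbers pair the arrays, so the main fit did not pair them. Over all genes, deviations from the diet means correlated at -0.125, 0.252, 0.445 and 0.171 between same-numbered arrays. Normal 2, 3 and 4 each correlated best with the high-fat array of their own number, and normal 1 with high-fat 2 (0.182). Whether the numbers mark pairs or a shared batch was not tested. With the replicate number as a block, 0 probe sets were called and 50 members were higher as before. An unadjusted limma p under 0.05 was then found in 1111 probe sets against 699 without the block. Among the 90 member genes it was found in 3 against 1.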

Other observations

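High-fat 3 differed between brighter and dimmer subunit genes. Among the 39 dimmer subunit genes, with a mean level below 8.48, it had a mean scaled level of -0.856 and was the lowest array in 12 and the highest in 1. Among the 38 brighter ones it had 0.035, and was lowest in 4 and highest in 9. Normal 3 was lowest in 43.6% of the dimmer and 44.7% of the brighter subunit genes, against 22% and 57.5% of all genes below and above that level. Over all genes below and above it, high-fat 3 had -0.00796 and -0.18. High-fat 4 was high in both sets of subunit genes, at 0.650 and 0.733, against -0.0455 and 0.174 over all genes. The division was made after the values were seen, and the sets of all genes were not matched to the subunit genes in level. Above the 75th percentile of the array, high-fat 3 had -0.430 over the subunit genes and -0.293 over all genes.

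The coactivator Ppargc1a, known for driving mitochondrial biogenesis, differed by 0.670 within-group SDs at a level of 6.29, below the array median. Gabpa, the ETS factor subunit of GABP, differed by -0.496 and Yy1 by -0.347. None of these passed the threshold in limma's test.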
